A study of Solanum lycopersicum with 6 samples.

Results

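A set of 44 genes stood at least 4-fold lower in the shoot apex of the tomato (Solanum lycopersicum) leafless mutant, lfs, than both in apices of the pin-shaped shoots that TIBA induces and in wild-type (WT) apices, and 31 of them had at most 10 reads over both lfs libraries. The 44 were chosen from the 34722 genes of the deposited table by 2 conditions on the normalised read count, which is the number of reads of a gene divided by 1 scaling factor per library. The count had to be at least 30 in each of the 4 TIBA and WT libraries, which 16151 genes met. The lowest of those 4 counts also had to be at least 4 times the higher of the 2 lfs counts. The low level in lfs is therefore how the genes were found, and it is described here without a test. The choice set no direction between TIBA pins and WT apices, and that comparison was tested. Both conditions still bear on it, since they limit how far a gene could fall in either group.

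The shoot apical meristem is the stem cell region at the tip of the shoot, and new leaves arise as primordia on its flank. Auxin that is carried from cell to cell gathers where a primordium will form, and an inhibitor of its polar transport such as TIBA (triiodobenzoic acid) can leave the apex as a bare pin. The 2 leafless shoots compared here thus have a genetic and a chemical origin.

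The 6 libraries formed 3 groups of 2. The lfs group was the mutant apex, for which no allele or genetic background is named in the labels. The TIBA group was the pin-like shoot tip that followed spraying with 1 mM TIBA, with no genotype named for the sprayed plants. The WT group was the untreated wild-type apex. The labels describe the lfs and TIBA samples as meristem alone and the WT samples as meristem with its youngest pair of leaf primordia, all from seedlings grown for 14 to 18 days in a greenhouse and fixed in acetone. Libraries held between 17640302 and 26054787 gene-assigned reads, the shallowest being TIBA replicate 2. The repeats are numbered but not said to come from separate plants or days, so each p-value sets a difference against a library-to-library spread that may be technical in part. No source used here pairs the gene identifiers with names (0 of 34722 matched the reference gene table). The genes are therefore given by identifier with no function, known tomato genes among them could not be recognised, and neither the labelled tissue nor the mutated gene could be checked against its own transcripts. In whole dissected tips, fewer cells of a type and less RNA per cell cannot be told apart. Nor can treatment and dissected tissue be told apart in a difference between TIBA pins and WT apices. The same holds for genotype and tissue between lfs and WT apices.

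Most of the 44 genes had few reads in the lfs apex. Over both lfs libraries together, 6 of them had no read, 15 had 1 to 3 reads, 10 had 4 to 10 reads and 13 had more than 10. The median normalised count was 3.04 in lfs replicate 1 and 0.813 in lfs replicate 2, against 234.5 and 323.8 in the TIBA libraries and 290.4 and 220.5 in the WT libraries. Summed over the set, the genes took 22.2 and 21.3 CPM (reads of the set for every 1000000 gene-assigned reads) in the lfs libraries, against 2087 and 3767 CPM in the TIBA libraries and 875 and 809 CPM in the WT libraries. The low lfs sum follows from how the genes were chosen. TIBA pins stood highest in this sum, whereas the median counts of the TIBA and WT libraries overlapped.

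**Figure D1:**
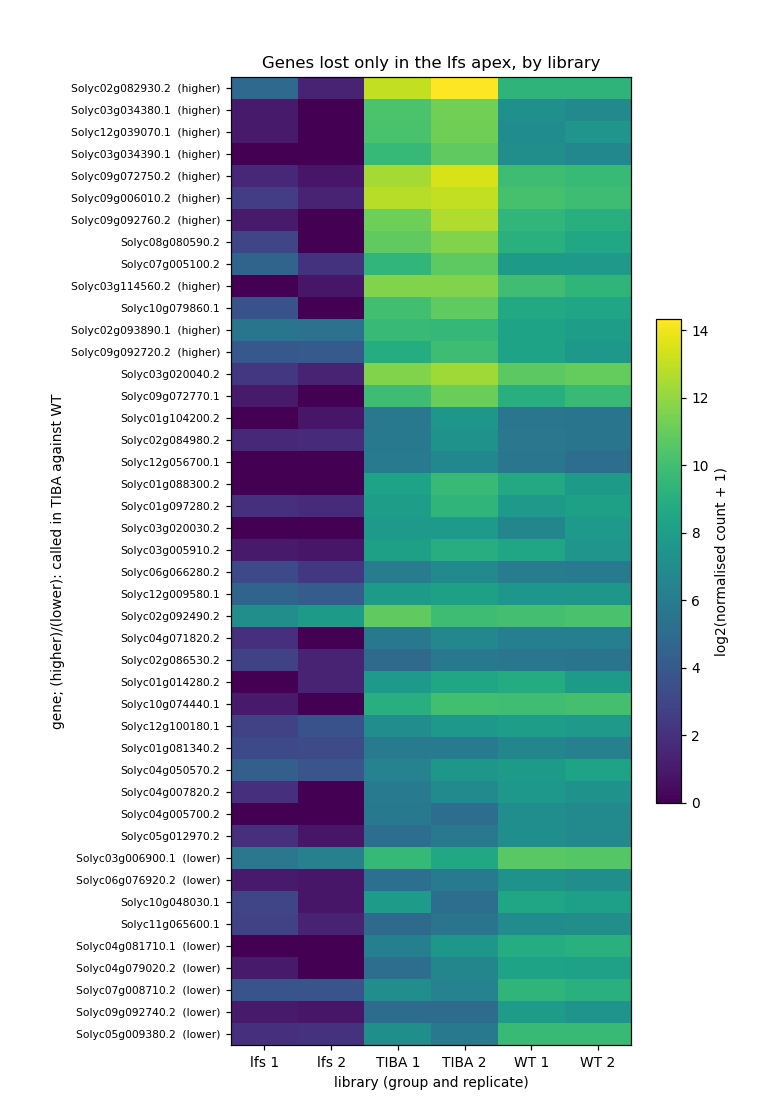
Normalised count on the log2(count + 1) scale (colour) of the 44 genes (rows) in each library (columns), with rows ordered by the TIBA minus WT difference. The lfs cells are the darkest of each row because of how the genes were chosen, with Solyc02g092490.2 the brightest of them (133.7 and 227.7); the upper rows are brightest in the TIBA columns and the lowest rows in the WT columns.

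The genes without any lfs read were expressed at moderate levels elsewhere. A count of 0 allows up to 3 reads in a library, which is a normalised count of 3.04 in lfs replicate 1 and 2.44 in lfs replicate 2; such limits cover counting error only. Solyc01g088300.2 (chromosome 1) had no read in either lfs library, while its normalised count was 316 and 824.7 in TIBA pins and 397.7 and 221.8 in WT. Its TIBA and WT ranges overlapped. Solyc04g081710.1 (chromosome 4) likewise had no lfs read and stood at 72.0 and 187.9 in TIBA pins, against 474 and 543.3 in WT, so both TIBA libraries lay below both WT libraries. Solyc03g034390.1 and Solyc03g020030.2, both on chromosome 3, also had no lfs read and are described with their neighbours.

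The genes just inside the limit differed in their lfs level. Among them, Solyc02g092490.2 (chromosome 2) had normalised counts of 133.7 and 227.7 in lfs, 1855 and 942 in TIBA pins and 1080 and 1175 in WT, so that its lowest TIBA or WT count was 4.14 times its higher lfs count. The ratio was 4.26 for Solyc04g050570.2 (chromosome 4), with 19.2 and 13 in lfs, 81.9 and 189.1 in TIBA pins and 220.8 and 312 in WT. Just outside the limit were Solyc02g064960.2 (chromosome 2), with a ratio of 3.92, and Solyc04g005380.2 (chromosome 4), with 3.79. Few genes lay near the limit: 55 genes reached a ratio of 3, 44 a ratio of 4, 40 a ratio of 5 and 34 a ratio of 8.

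The 2 lfs libraries did not decide the list equally. The normalised count was higher in lfs replicate 1 for 27 of the 44 genes, higher in replicate 2 for 11 and 0 in both for 6. A single read is a normalised count of 1.01 in lfs replicate 1 and 0.813 in replicate 2. Genes with equal reads in both, other than 0, are therefore counted as higher in replicate 1. When lfs replicate 1 was left out, 74 genes met the conditions, against 50 when lfs replicate 2 was left out. Of 185 genes that met both conditions for lfs against WT alone, the 44 genes make up 23.8%, 90 (48.6%) also met them for TIBA against WT, and 54 fell into neither class. The 2 classes shared 3 genes, Solyc05g009380.2, Solyc07g008710.2 and Solyc09g092740.2, which stood at least 4-fold below WT in TIBA pins and at least 4-fold lower again in lfs. Solyc07g008710.2 is named for this overlap, after its values were seen. The mirror choice, genes lost only from the TIBA pin, held 12 genes.

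The 44 genes were not all at the WT level in TIBA pins. Of the 44 genes, 10 were higher (22.7%) and 7 were lower (15.9%) in TIBA pins than in WT at an adjusted p under 0.05 (limma on log2(normalised count + 1), adjusted over all 19807 genes tested). The 27 others did not pass the test, which does not show that they were equal. Among all genes tested, 10.8% were called higher and 7.77% lower. Among the 16151 genes that met the same minimum of 30, the shares were 9.54% and 7.75%. The direction of change was thus mixed, and both shares of the set lay above the background. The median difference of the 44 genes was 0.52 on the log2 scale, against 0.01 over all tested genes, and the median size of the difference regardless of sign was 1.43, against 0.39 over all tested genes. Because the set was drawn up with results of these libraries known, these shares are a description.

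The counts of calls rest on both WT libraries. Without WT replicate 1 limma called 4 of the genes higher and 0 lower (9 and 6 at an unadjusted p under 0.05), and without WT replicate 2 it called 4 higher and 1 lower. Over all genes limma called 3681 with every library. Dropping WT replicate 1 left 654, dropping WT replicate 2 left 697, and dropping TIBA replicate 1 gave 6502. With the replicate number as a block, 9 of the genes were called higher and 4 lower, and 2743 were called over all genes.

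**Figure D2:**
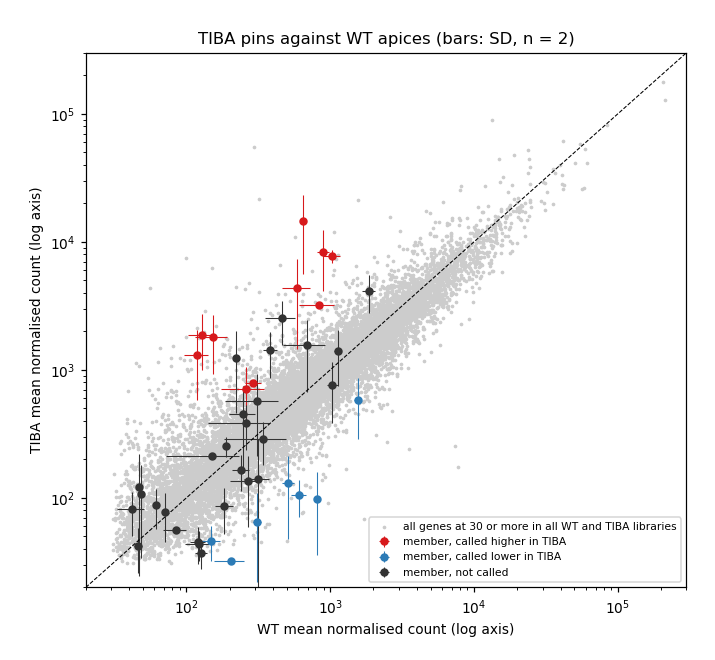
Mean normalised count in TIBA pins (vertical, log axis) against that in WT apices (horizontal, log axis) for the 44 genes (coloured points, bars SD, n = 2) and for all 16151 genes at 30 or more in those libraries (grey). The 10 genes called higher lie above the dashed line of equality and the 7 called lower lie below it; the lower bar of a gene whose SD is above its mean is cut off.

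The 10 genes that rose in TIBA pins did so by 1.40 to 4.34 log2 units (limma, adjusted p between 0.0039 and 0.049), and in each of them both TIBA libraries lay above both WT libraries. Solyc02g082930.2 (chromosome 2) had the highest mean normalised count of the 44 genes over the TIBA and WT libraries, set by its TIBA level, with normalised counts of 8228 and 20707 in TIBA pins, against 644.6 and 646.4 in WT, and 29.4 and 1.63 in lfs. Its WT libraries were alike and its TIBA libraries far apart, but the groups did not overlap. The difference between TIBA and WT was 4.34 log2 units (SE 1.04, limma adjusted p = 0.033). This call was lost without either TIBA library (limma adjusted p = 0.065 and 0.19), without either WT library (0.26 and 0.27) with no filter on low values (0.069) and with a weight per group (0.15), and its adjusted p over all alternatives ran from 0.0052 to 0.27. With the TIBA and WT libraries alone, where the spread of its lfs libraries does not enter, the SE was 0.42 (limma adjusted p = 0.0060). This gene alone made up 23.3% of the summed TIBA level of the set.

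Solyc03g034380.1 (chromosome 3) showed the next largest increase. Its normalised count was 1258 and 2473 in TIBA pins, against 147.2 and 110.9 in WT, and a single read was found in lfs. Both TIBA libraries were far above WT, with a difference of 3.78 log2 units (SE 0.48, limma adjusted p = 0.0041), and the call held in all 16 alternatives. Solyc09g072750.2 (chromosome 9), second by the same mean, stood at 5340 and 11202 in TIBA pins, against 957 and 835.3 in WT, and at 3 reads in all in lfs. Its difference of 3.11 log2 units (SE 0.39, limma adjusted p = 0.0039) also held in all 16 alternatives. Of the 18 genes of the set named by rule, these were the only 2 for which that was so.

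The 7 genes that fell in TIBA pins had log2 differences between -1.51 and -3.20 (limma, adjusted p between 0.0039 and 0.035), and in each both TIBA libraries lay below both WT libraries. These genes were lower than in WT in both leafless shoots, but less so in TIBA pins than in lfs, as the conditions of the choice required. Solyc05g009380.2 (chromosome 5) had normalised counts of 142.3 and 53.9 in TIBA pins, against 798.1 and 830.1 in WT, and 3.04 and 3.25 in lfs. The difference between TIBA and WT was -3.20 log2 units (SE 0.46, limma adjusted p = 0.0062), with adjusted p = 0.058 without WT replicate 1 and 0.060 without WT replicate 2. Over all alternatives it ran from 8.8e-11 to 0.060. The call for Solyc04g081710.1 (log2 difference -2.11, SE 0.49, limma adjusted p = 0.027) was likewise lost without WT replicate 1 (0.17) or WT replicate 2 (0.21), and its adjusted p over the alternatives ran from 0.00023 to 0.21.

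Counting libraries rather than calls, both TIBA libraries lay above both WT libraries for 21 of the 44 genes (47.7%), against 33.1% of the 16151 genes that met the minimum. Both lay below for 15 genes (34.1%), against 33.0%. The groups overlapped for the 8 others. Of the 27 genes that did not pass the test, 12 had a difference larger than 1 log2 unit, 6 in each direction. The test uses 1 spread for all 3 groups, so the scatter of the lfs libraries at a few reads enters it. With the TIBA and WT libraries alone, limma called 13 of the genes higher and 10 lower. Over all genes that fit called 3042 in either direction, against 3681 with every library. Per the authors' deposited table, 13 of the 44 genes were higher and 9 lower in TIBA pins at an adjusted p under 0.05, against 8.3% and 5.96% of the 25845 genes with an adjusted p there. The 10 and 7 genes called by limma were all among these in the authors' deposited table, which rests on the same libraries.

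The 2 TIBA libraries differed over most of the set in the same direction. The normalised count was higher in TIBA replicate 2 for 35 of the 44 genes (79.5%), against 51.9% of the genes that met the minimum. The median gap between TIBA replicate 2 and replicate 1 was 0.79 on the log2 scale, a ratio of 1.73, against 0.02 over the genes that met the minimum. In 31 of the 44 genes (70.5%) the gap was above 0.5, as it was in 12.4% of the genes that met the minimum. In WT, 30 of the 44 genes were higher in replicate 1, with a median gap between replicate 2 and replicate 1 of -0.21 and 2 genes with a gap above 0.5. Of the genes that met the minimum, 48.2% were higher in WT replicate 1, with a median gap of 0.01, and 1.56% had a gap above 0.5. Over the genes that met the minimum, gaps above 0.5 were thus also more common between the TIBA than between the WT libraries. Their median gap was near 0, where the scaling factor of each library tends to place it, so it serves only as a reference. Relative to it, the set was shifted towards TIBA replicate 2. Of the 44 genes, 9 were higher in TIBA replicate 1. TIBA replicate 2 was also the shallowest library, and the part of depth or of any difference between the pins in this gap was not tested.

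**Figure D3:**
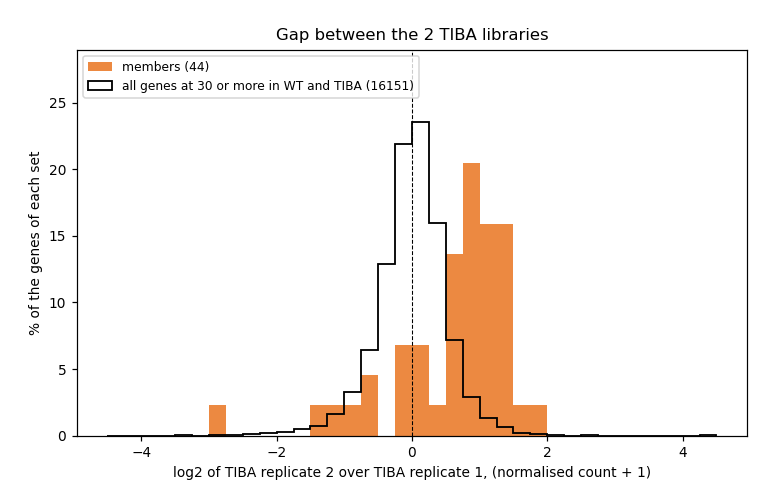
Distribution of the log2 ratio of TIBA replicate 2 over TIBA replicate 1 (horizontal) as the percent of genes in each set (vertical), for the 44 genes (filled) and for the 16151 genes at 30 or more in TIBA and WT (line). The line is centred near 0, while 31 of the 44 genes lie above 0.5.

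The gap was not confined to genes called higher in TIBA pins. TIBA replicate 2 was higher in 8 of the 10 genes called higher (median gap 1.03), in 4 of the 7 called lower (median gap 0.00) and in 23 of the 27 that did not pass the test (median gap 0.79). Among the 1530 other genes that met the minimum and were called higher in TIBA pins, 70.7% were higher in replicate 2, with a median gap of 0.18. Among the 1244 other such genes called lower, 30.1% were higher in replicate 2, with a median gap of -0.18. Over these other genes, TIBA replicate 2 thus tended to lie further from WT in both directions. The widest gaps belonged to genes that did not pass the test, but a wide gap itself enlarges the spread that the test uses. Solyc01g104200.2 (chromosome 1) stood at 52.9 in TIBA replicate 1 and 190.3 in TIBA replicate 2, against 47.6 and 46.8 in WT, and Solyc02g084980.2 (chromosome 2) at 55.4 and 160.4, against 50.3 and 46.8 in WT. In both, TIBA replicate 1 was close to WT and only replicate 2 was clearly above it. In the other direction, Solyc10g048030.1 (chromosome 10) was at 245.7 in TIBA replicate 1 and 34.7 in TIBA replicate 2, against 356.4 and 269.5 in WT. Solyc05g009380.2, with the decrease given above, had the next widest gap of this kind. Without TIBA replicate 1, limma called Solyc01g104200.2 and Solyc02g084980.2 higher (adjusted p = 0.044 and 0.032) and Solyc10g048030.1 lower (adjusted p = 0.040). Their highest adjusted p-values in any alternative were 0.88, 0.82 and 0.82.

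Despite this gap, the genes kept much the same order of change in both TIBA libraries. When TIBA replicate 1 was set against WT replicate 1, and TIBA replicate 2 against WT replicate 2, so that no library was used in both, the log2 ratios of the 44 genes correlated with Pearson r = 0.90 and Spearman rho = 0.90, and 38 of the 44 had the same sign. Over the 16151 genes that met the minimum, r was 0.74, rho 0.68 and the share with the same sign 75.5%. These are correlations across genes, which share libraries and are not independent replicates, and the 44 genes span a wider range of ratios.

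By their identifiers, which carry the chromosome and a number that follows gene order, the 44 genes lay on all 12 chromosomes. Chromosome 3 held 7 of them, chromosomes 4 and 9 held 6 each, chromosomes 1 and 2 held 5 each, chromosome 12 held 4, chromosome 10 held 3, chromosomes 5, 6 and 7 held 2 each, and chromosomes 8 and 11 held 1 each. Chromosome 9 had the highest share, with 0.506% of its 1186 genes that met the minimum, against 0.272% over the genome. It held 4 of the 10 genes called higher in TIBA pins. Among these, Solyc09g072750.2, Solyc09g092720.2 and Solyc09g092760.2 lie in the runs of neighbours described below. Over all chromosomes, 9.54% of the genes that met the minimum were called higher in TIBA pins and 7.75% lower. These shares were not computed for single chromosomes, so the counts of calls show no pattern by chromosome. Chromosome 1 had the most genes that met the minimum (2102), and none of its 5 genes was called in either direction. No test of the spread over chromosomes was made.

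**Figure D4:**
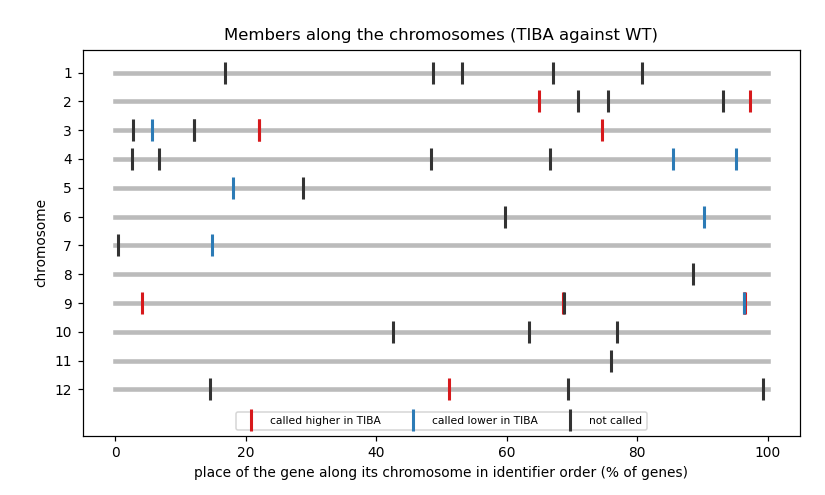
Place of each of the 44 genes (ticks) along its chromosome (rows), as the percent of the genes of that chromosome in identifier order, coloured by the call in TIBA against WT. All 12 chromosomes hold at least 1 gene, and ticks that nearly coincide on chromosomes 3 and 9 are the neighbouring genes.

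Some of the 44 genes were neighbours. In 4 places, holding 9 of the genes, the identifier numbers were at most 50 apart, which is 5 gene places. Neighbouring genes can be copies of each other, and whether reads could have been shared between them was not tested. The identifiers of Solyc03g034380.1 and Solyc03g034390.1 (chromosome 3) follow each other directly. Solyc03g034390.1 had no read in lfs and normalised counts of 791.7 and 1829 in TIBA pins, against 134.7 and 103.1 in WT, much like its neighbour. Its difference between TIBA and WT was 3.34 log2 units (SE 0.45, limma adjusted p = 0.0051, and 0.051 without WT replicate 2, the highest in any alternative, where the lowest was 6.2e-15). The genes on either side did not share the loss in lfs: Solyc03g034370.1 stood at 822.5 and 442.3 in lfs and at 133.8 and 147.3 in WT, and Solyc03g034400.2 at 100.3 and 82.1 in lfs and at 70.9 and 76.3 in WT.

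In a second adjoining pair on chromosome 3, both TIBA libraries lay above both WT libraries for each gene, but neither difference passed the test. Solyc03g020040.2 had normalised counts of 4.05 and 1.63 in lfs, 3197 and 5100 in TIBA pins and 1715 and 2002 in WT. Its TIBA libraries were both above WT, by 1.12 log2 units (SE 0.35), which did not pass the test (limma adjusted p = 0.065). It passed in 8 of 16 alternatives, with adjusted p from 0.00017 to 0.30. Among these, leaving out TIBA replicate 1 gave 0.036, and leaving out lfs replicate 1 or lfs replicate 2 gave 0.039 or 0.038. Solyc03g020030.2 had no lfs read, 212.6 and 213.1 in TIBA pins, and 95.2 and 208 in WT, so that 1 WT library was close to the TIBA libraries. Its difference was 0.59 log2 units (SE 0.46, limma adjusted p = 0.40). Whether the pair differed in its change was not tested. The gene before this pair, Solyc03g020020.2, was abundant in every library, at 3836 and 4537 in lfs. The gene after the pair, Solyc03g020050.2, stood at 1.01 and 0 in lfs, 26.5 and 7.18 in TIBA pins, and 0 and 0 in WT.

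On chromosome 9, Solyc09g072750.2 and Solyc09g072770.1 lay 2 places apart, with a gene between them that had no read in any library. Solyc09g072770.1 was at a single read in lfs, at 932.4 and 2183 in TIBA pins and at 534.1 and 854.4 in WT. Both TIBA libraries were above WT, but the difference of 1.08 log2 units (SE 0.51) did not pass the test (limma adjusted p = 0.18). It passed without TIBA replicate 1 (limma adjusted p = 0.0498) and with DESeq2 on recovered reads (adjusted p = 0.027), and the highest value in any alternative was 0.59.

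The longest run, also on chromosome 9, held 3 genes that were all low in lfs and went different ways in TIBA pins. Solyc09g092760.2 stood at a single read in lfs, at 2321 and 6438 in TIBA pins and at 681.4 and 498.3 in WT, a difference between TIBA and WT of 2.73 log2 units (SE 0.53, limma adjusted p = 0.015). Solyc09g092720.2 had 14.2 and 15.4 in lfs, 466.6 and 959.9 in TIBA pins and 319.6 and 200.2 in WT, a difference of 1.40 log2 units (SE 0.39, limma adjusted p = 0.049). Solyc09g092740.2, which lies between them, had 1.01 and 0.813 in lfs, 32.3 and 32.3 in TIBA pins and 237.9 and 169 in WT, a difference of -2.60 log2 units (SE 0.41, limma adjusted p = 0.0078). The outer 2 genes were thus higher in TIBA pins and the middle one was lower. Of the 2 further genes inside the run, Solyc09g092730.1 had no read in any library. Solyc09g092750.2, with 0 and 1.63 in lfs, 22.3 and 10.8 in TIBA pins and 165.2 and 93.6 in WT, resembled Solyc09g092740.2 but fell short of the minimum of 30 in TIBA pins. The genes between and beside the runs were looked up after their values could be seen.

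The calls in this run were not equally firm. That for Solyc09g092720.2 passed in 7 of 16 alternatives, with adjusted p from 0.0027 to 0.31, and was lost with any library left out other than TIBA replicate 1. Its adjusted p became 0.079 when either lfs library was left out, 0.15 with TIBA replicate 2 left out, 0.12 with WT replicate 1 left out and 0.31 with WT replicate 2 left out. It was also lost under the replicate block (adjusted p = 0.082). The calls for Solyc09g092760.2 and Solyc09g092740.2 each passed in 14 of 16 alternatives. For Solyc09g092760.2 the adjusted p came to 0.073 with WT replicate 1 left out and 0.11 with WT replicate 2 left out, and ran from 3.8e-10 to 0.11. For Solyc09g092740.2 it was 0.12 and 0.079 in those fits, and ran from 1.2e-07 to 0.12.

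**Figure D5:**
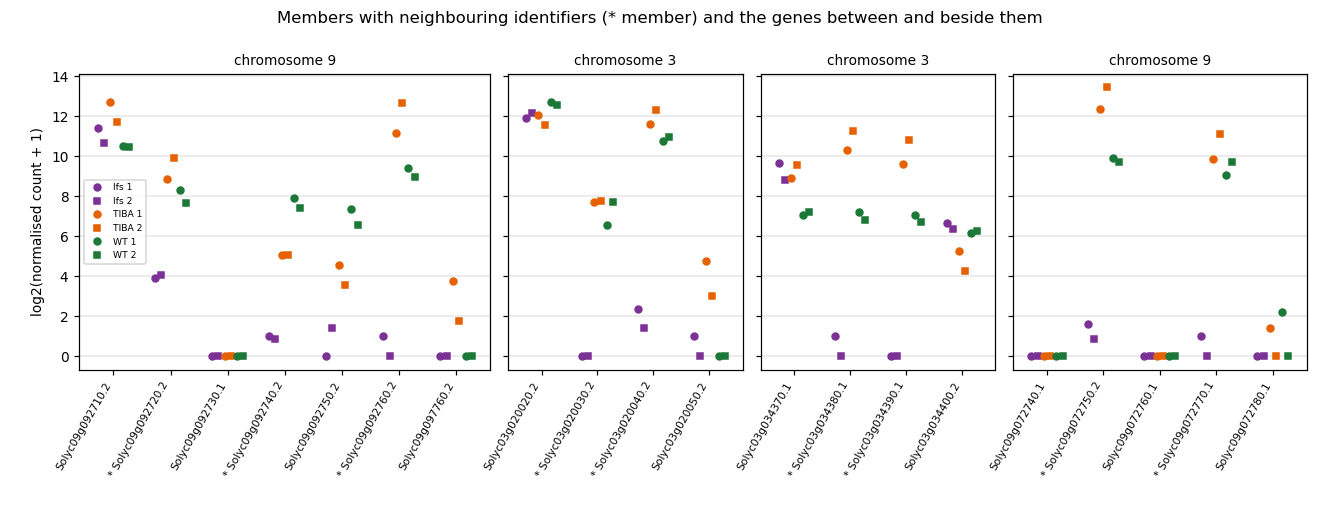
Normalised count on the log2(count + 1) scale (vertical) of the 9 genes in runs (marked *), the genes between them and 1 gene on each side (horizontal), in every library (colour gives the group, shape the replicate). In the run of 3 genes on chromosome 9 the TIBA points lie above WT for the outer 2 genes of the set and below WT for the middle one.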

How the data were processed

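The submitters' processing notes name TopHat2 (2.0.10), HTSeq (0.6.1p1) and DESeq2 (1.6.3). Which genome build, annotation and strand setting were used is not stated in the sources used here. The deposited normalised counts are a signal, gene reads divided by 1 size factor per library, per the file headers. The deposited table also holds the authors' log2 fold changes and p-values. All 208332 values (100%) were whole multiples, within 0.001 reads, of 1 read, so reads could be recovered.

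TIBA was compared with WT by limma (3.58.1, R 4.3.3; trend and robust moderation) on log2(normalised count + 1). All 3 groups were fitted together, for genes with at least 10 in 2 or more libraries, with Benjamini-Hochberg adjustment at 0.05. Such fold changes understate the change of low genes. All 44 genes passed this filter. edgeR (4.0.16, quasi-likelihood) and DESeq2 (1.42.0) on recovered reads, other pseudocounts, filters, limits and left-out libraries were alternatives. The genes and lists were chosen with earlier results of these data known. Genes were named by rule: the 2 largest called changes each way in TIBA, 2 just inside and 2 just outside the limit, the 2 highest means over TIBA and WT, the 2 widest TIBA gaps each way, the 4 highest without an lfs read, and runs of neighbours. Gene groups by function and cell type markers could not be filled, as the identifiers carry no names.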

Additional observations from a re-analysis of the deposited data

How the results depend on the processing

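The number of genes that met the conditions was 33 to 55 with other limits (3-fold, 5-fold, a minimum of 20 or 50) and 48 with reads scaled by TMM, which kept all 44; it ran from 47 to 74 with 1 library left out. In the alternatives that left out no single library, 8 to 14 of the genes were called higher and 4 to 10 lower in TIBA pins. The lowest was 4 lower under the replicate block, and with a minimum of 50 in the choice 4 were also lower. Over all genes, those alternatives called 2743 to 4560. With 1 library left out the counts ran from 4 to 14 higher and from 0 to 8 lower, and those over all genes from 654 to 6502. The lone library of a group is then assumed to vary like the others. The 0 came from limma without WT replicate 1 (6 lower at an unadjusted p under 0.05), where edgeR and DESeq2 were not run; with all libraries edgeR called 9 lower and DESeq2 10. The labels do not say whether equal replicate numbers mark a shared origin. Across genes, deviations of same-numbered libraries correlated at -0.14 (lfs and TIBA), 0.02 (lfs and WT) and -0.05 (TIBA and WT), which cannot settle it. Over the 18 genes named by rule, no called difference changed sign in any alternative. The weight per group was chosen after seeing the data. With 2 libraries per group, small differences could not be detected.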
